A study of Mus musculus with 8 samples.

Results

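Complex I (NADH:ubiquinone oxidoreductase) is the largest enzyme of the mitochondrial respiratory chain and is built from proteins of both genomes. The genes described here are the protein-coding genes whose symbol begins with Nduf in the deposited table and the 6 mitochondrial features that carry the mt-Nd mRNAs, 53 of the 55383 rows in all. They comprise 5 features on the H-strand (mt-Nd1, mt-Nd2, mt-Nd3, mt-Nd4l_4, which joins mt-Nd4l and mt-Nd4, and mt-Nd5), mt-Nd6 on the L-strand, 7 nuclear core subunit genes, 30 nuclear accessory subunit genes, 8 assembly factor genes (Ndufaf) and 2 genes, Ndufa4 and Ndufa4l2, that carry the family name without being counted as complex I subunits. The 47 nuclear genes lie on 18 chromosomes, with at most 6 on 1 chromosome. All 53 reached a normalized count of 10 in 2 or more libraries and were tested.

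RNA of whole hearts was sequenced from mice that lacked Ssbp1, which encodes mtSSB, the protein that coats single-stranded mitochondrial DNA, and from controls. The knockouts (labelled Ssbp1-/-, 2 mice) carried loxP-flanked Ssbp1 on both alleles and Cre recombinase driven by the muscle creatine kinase promoter (Ssbp1 loxP/loxP, +/Ckmm-cre), and the controls (labelled Ssbp1+/+, 2 mice) were Ssbp1 loxP/loxP without Cre. This Cre is active in cardiomyocytes and skeletal muscle, so the other cells of a knockout heart keep the gene. All mice were about 5 weeks old and on an inbred C57BL/6N nuclear background. The genotypes with loxP and Cre come from the study's text, and the labels describe the same mating for every mouse without saying which carried Cre. A further 2 mice, 585H and 586H, have titles and genotype fields that contradict each other and enter no comparison here. Each group holds 2 separate mice. The limma p-values rest on the spread between these hearts for each gene, moderated toward that of genes of like level.

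Electrons from NADH enter complex I through a flavin and a chain of iron-sulfur clusters in the peripheral arm, made of nuclear-encoded subunits, and reach ubiquinone at the junction with the membrane arm, where the mitochondrial-encoded subunits pump protons. The accessory subunits surround this core and are needed for its stability, and the assembly factors help to build the enzyme without staying in it. The heart, which depends on oxidative phosphorylation, holds large amounts of the complex, and both genomes have to supply its parts.

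The 4 libraries compared held 19716305 to 25682093 reads. The mitochondrial share, over all mitochondrial features, was 56.2% to 58.0% in the knockouts and 62.7% to 66.7% in the controls. Mitochondrial mRNA alone made up 6.26% and 6.02% of all counts in the knockouts, against 11.4% and 12.1% in the controls. The nuclear complex I genes received 103160 to 103649 reads in the knockouts and 60554 to 81096 in the controls. These are raw reads, not corrected for depth. All nuclear genes together received 10734547 to 11259234 reads in the knockouts and 6568812 to 8981637 in the controls. Ssbp1 (chr6:40471352-40484700, plus strand, GRCm38) had normalized counts of 170 and 163 in knockout hearts 1 and 2, against 177 and 216 in control hearts 1 and 2. Both knockouts lay below both controls, but the difference was small (log2 fold change -0.23, SE 0.16, limma adjusted p = 0.890), and the count runs over the whole gene and not over exon 3 alone, the exon that Cre removes. Over all 14522 genes tested, limma called 11 higher (0.0757%) and 6 lower (0.0413%) in knockout hearts at an adjusted p under 0.05, and the median log2 fold change was 0.0024. All 6 called lower were mRNAs of the mitochondrial H-strand, and 3 of them belong to complex I.

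The mitochondrial complex I genes overlap each other, which bears on how their reads are counted. The last bases of mt-Nd5, on the plus strand (chrM:13526-13565), and of mt-Nd6, on the minus strand (chrM:13552-13591), are shown because the 2 genes end over the same 14 base pairs, and mt-Nd5 fell in knockout hearts while mt-Nd6 stood above both controls. Each is written 5′ to 3′ along its own mRNA, with the shared bases, which are reverse complements of each other, in capitals.
mt-Nd5 3′ end: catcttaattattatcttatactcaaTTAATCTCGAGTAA
mt-Nd6 3′ end: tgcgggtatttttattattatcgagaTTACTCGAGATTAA
The reads were assigned by strand, which is meant to keep those of mt-Nd5 and mt-Nd6 apart. The share of reads assigned to the wrong strand was not measured. The junction of mt-Nd4l and mt-Nd4 (chrM:10144-10196, plus strand) is shown because the 2 reading frames share 7 bases of 1 mRNA, in capitals, and the deposited table counts them as 1 feature.
mt-Nd4l to mt-Nd4 junction: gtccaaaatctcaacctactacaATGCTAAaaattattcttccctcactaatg
The mt-Nd6 mRNA also differs in base composition, with 28.1% G and 5.97% C, against 8.0% to 11.6% G and 22.1% to 29.97% C in the 6 other mt-Nd genes. These sequences come from GENCODE vM21 transcripts on GRCm38.

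The 5 H-strand complex I features were lower in both knockout hearts than in both controls, and the size of the decrease grew along the genome in the order mt-Nd1, mt-Nd2, mt-Nd3, mt-Nd4l_4 and mt-Nd5. The last 3 of these passed the test, and mt-Nd1 and mt-Nd2 did not. Among all genes tested, 17.5% had both knockouts below both controls. The polycistronic H-strand transcript runs through these genes in the same order.

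mt-Nd1 (chrM:2751-3707), which forms the part of the membrane arm next to the ubiquinone site, had normalized counts of 170644 and 154840 in knockout hearts 1 and 2, against 178893 and 199761 in control hearts 1 and 2. The groups did not overlap, but the highest knockout lay close to the lowest control, and the log2 fold change of -0.22 (SE 0.11, 95% interval -0.48 to 0.04) did not pass the test (limma adjusted p = 0.815). Relative to the mitochondrial total in place of the deposited size factors, its log2 fold change was 0.26, so that the direction for mt-Nd1 depends on the scale. With equal mitochondrial totals the median over all genes tested was 0.47.

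mt-Nd2 (chrM:3914-4951), an antiporter-like subunit of the membrane arm, had 49118 and 45202 in the knockouts, against 90462 and 113960 in the controls. Its log2 fold change of -1.11 (SE 0.13, 95% interval -1.42 to -0.80) missed the threshold (limma adjusted p = 0.070). DESeq2 on recovered reads called it (adjusted p = 3.04e-17), and so did limma without control heart 1 (adjusted p = 0.041), a fit in which the single control heart has no spread of its own and is assumed to vary like the knockouts.

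mt-Nd3 (chrM:9459-9806), a small subunit with a loop near the ubiquinone site, had 12178 and 11284 in the knockouts, against 41898 and 45192 in the controls. It fell by 1.89 on the log2 scale (SE 0.09, limma adjusted p = 0.0015). The gap between the groups was far wider than that between the hearts of either group.

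mt-Nd4l_4 (chrM:9877-11544) carries mt-Nd4l, a small subunit beside the proton channels, and mt-Nd4, a second antiporter-like subunit. It had 22575 and 19755 in the knockouts, against 113769 and 149215 in the controls, and fell by 2.63 on the log2 scale (SE 0.15, limma adjusted p = 0.0041). The controls differed more from each other than the knockouts did, and still stood far above them.

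mt-Nd5 (chrM:11742-13565), the antiporter-like subunit at the far tip of the membrane arm, had 14459 and 11664 in the knockouts, against 108876 and 128242 in the controls. It fell by 3.19 on the log2 scale (SE 0.13, limma adjusted p = 0.0015), the most among the complex I genes. The knockout hearts held 0.11 times the control level of mt-Nd5 on the scale of the fit. mt-Nd3, mt-Nd4l_4 and mt-Nd5 passed the test in edgeR and DESeq2 on recovered reads. They also passed in each of the 4 fits with 1 heart left out, but each such fit leaves a group with 1 heart, which is assumed to vary like the other group. None of them passed when limma was run without its mean-variance trend (adjusted p = 0.198, 0.217 and 0.142), or when mice 585H and 586H were added by their titles (limma adjusted p = 0.999 each), and all passed when those mice were added by their genotype field.

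**Figure D1:**
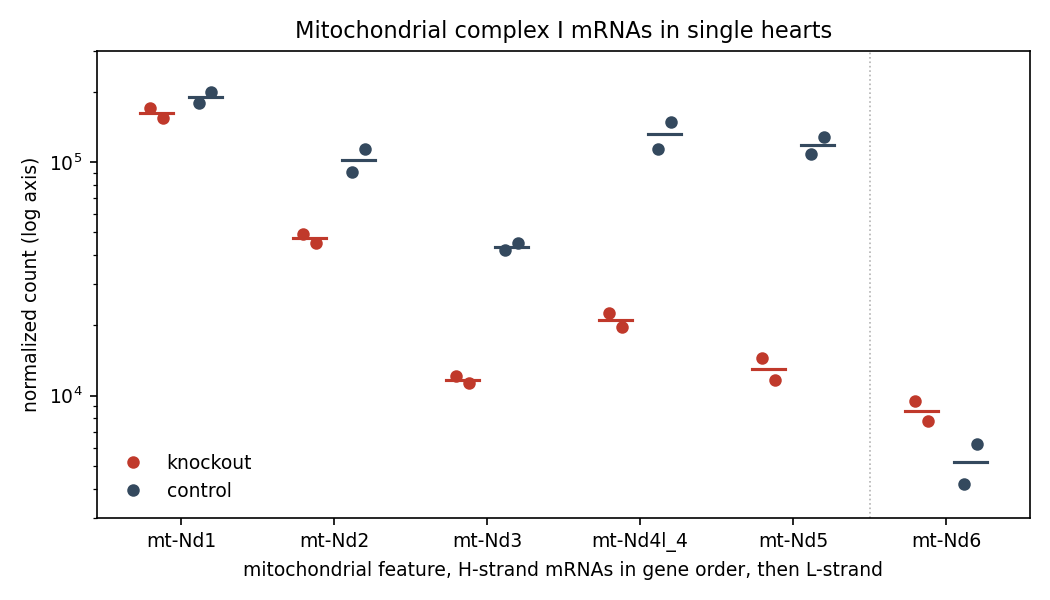
Normalized counts of the 6 mitochondrial complex I features (log axis) in single knockout hearts (red, left) and control hearts (dark blue, right), with a line at each group mean. The distance between the groups widens from mt-Nd1, at 170644 and 154840 against 178893 and 199761, to mt-Nd5, at 14459 and 11664 against 108876 and 128242, and the order is turned round at mt-Nd6.

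The decrease deepened with distance from mt-Nd1. The starts of mt-Nd2, mt-Nd3, mt-Nd4l_4 and mt-Nd5 lie 1.16, 6.71, 7.13 and 8.99 kb downstream of that of mt-Nd1. The 5 other H-strand mRNAs, which encode subunits of cytochrome c oxidase, ATP synthase and complex III, had log2 fold changes between -3.96 and -0.998, and 3 of them passed the test. Their values lay between those of their complex I neighbours or close to them, except that mt-Cytb, the H-strand mRNA gene farthest downstream, was lower than mt-Nd5. The 10 features share their libraries and 1 transcription unit, so they are not independent points.

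Ratios between successive complex I features inside 1 heart, with the other H-strand mRNAs between them skipped, need no scaling between libraries and were lower in both knockouts. mt-Nd2 per mt-Nd1 was 0.288 and 0.292 in the knockouts, against 0.506 and 0.570 in the controls. mt-Nd3 per mt-Nd2 was 0.248 and 0.2496 in the knockouts, against 0.463 and 0.397 in the controls. For both pairs the knockout hearts were nearly equal to each other, and the controls were farther apart. mt-Nd4l_4 per mt-Nd3 was 1.85 and 1.75 in the knockouts, against 2.72 and 3.30 in the controls, and mt-Nd5 per mt-Nd4l_4 was 0.640 and 0.590 in the knockouts, against 0.957 and 0.859 in the controls. In all 4 ratios both knockouts lay below both controls (two-sided exact permutation p = 0.333 each, the smallest value that 2 against 2 hearts allow). When each of the 10 H-strand mRNAs was set against its direct neighbour, 7 of 9 ratios were lower in both knockouts and 2 were higher. The exceptions were mt-Co1 per mt-Nd2, with 13.03 and 12.55 in the knockouts against 12.14 and 11.57 in the controls, and mt-Co3 per mt-Atp8_6, with 1.83 and 1.82 in the knockouts against 1.65 and 1.48 in the controls. From one end to the other, mt-Nd5 per 1000 counts of mt-Nd1 was 80.0 ± 6.65 in the knockouts and 625 ± 23.6 in the controls (mean ± SD, n = 2 hearts each).

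Per kilobase of mRNA, the H-strand features had mean normalized counts between 7161 (mt-Nd5) and 170054 (mt-Nd1) in knockout hearts, and between 64999 (mt-Nd5) and 197834 (mt-Nd1) in control hearts. The highest level per kilobase was thus 23.7 times the lowest in the knockouts and 3.04 times the lowest in the controls. In the controls mt-Nd3, with 125129 counts per kilobase, stood above mt-Nd2, with 98469, while in the knockouts mt-Nd3, with 33710, stood below mt-Nd2, with 45433.

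mt-Nd6 (chrM:13552-14070, minus strand), a membrane arm subunit and the only mRNA that the L-strand encodes, had normalized counts of 9454 and 7788 in knockout hearts 1 and 2, against 4178 and 6185 in control hearts 1 and 2. Both knockouts stood above both controls, as in 18.1% of all genes tested. The log2 fold change of 0.76 (SE 0.19, 95% interval 0.28 to 1.23) did not pass the test over all genes (limma adjusted p = 0.647). The controls themselves differed widely for this gene, and the log2 fold change was 0.47 to 1.04 when 1 heart was left out. Relative to equal mitochondrial totals, mt-Nd6 passed the test with a log2 fold change of 1.23 (limma adjusted p = 0.0085). That scale moved the median over all genes tested to 0.47, and 5070 genes then had an unadjusted p under 0.05 in limma. Per kilobase it averaged 16611 in the knockouts, above mt-Nd4l_4 (12689) and mt-Nd5 (7161), and 9984 in the controls, below all 5 H-strand features.

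Set against the H-strand complex I mRNA of the same heart, mt-Nd6 had 35.2 and 32.1 counts per 1000 in the knockouts, against 7.83 and 9.72 in the controls. The means were 33.6 ± 2.17 in the knockouts and 8.77 ± 1.34 in the controls (mean ± SD, n = 2 hearts each), a difference of 1.95 on the log2 scale (two-sided exact permutation p = 0.333, the least this design allows). Against mt-Nd5, its neighbour on the opposite strand, mt-Nd6 had 654 and 668 counts per 1000 in the knockouts and 38.4 and 48.2 in the controls. Both sides of this ratio differ between the groups, mt-Nd5 more than mt-Nd6. With mt-Nd1 as the denominator, the H-strand mRNA that differed least, mt-Nd6 had 55.4 and 50.3 per 1000 in the knockouts and 23.4 and 31.0 in the controls.

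The make-up of the mitochondrial complex I mRNA pool differed accordingly. mt-Nd1 took up 61.3% and 61.8% of the summed counts of the 6 features in the knockouts, against 33.2% and 31.1% in the controls. mt-Nd5 took up 5.19% and 4.66% in the knockouts, against 20.2% and 20.0% in the controls. The share of mt-Nd4l_4 was 8.11% and 7.89% in the knockouts, against 21.1% and 23.2% in the controls. These shares differed by far less between hearts of 1 group than between the groups. mt-Nd2 kept a like share, with 17.6% and 18.0% in the knockouts and 16.8% and 17.7% in the controls, and mt-Nd6 had 3.40% and 3.11% in the knockouts and 0.776% and 0.963% in the controls. The complex I features together made up 20.6% ± 0.059 of all H-strand mRNA counts in the knockouts and 19.9% ± 0.19 in the controls (mean ± SD, n = 2 hearts each), a 1.04-fold difference in which the groups did not overlap.

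**Figure D2:**
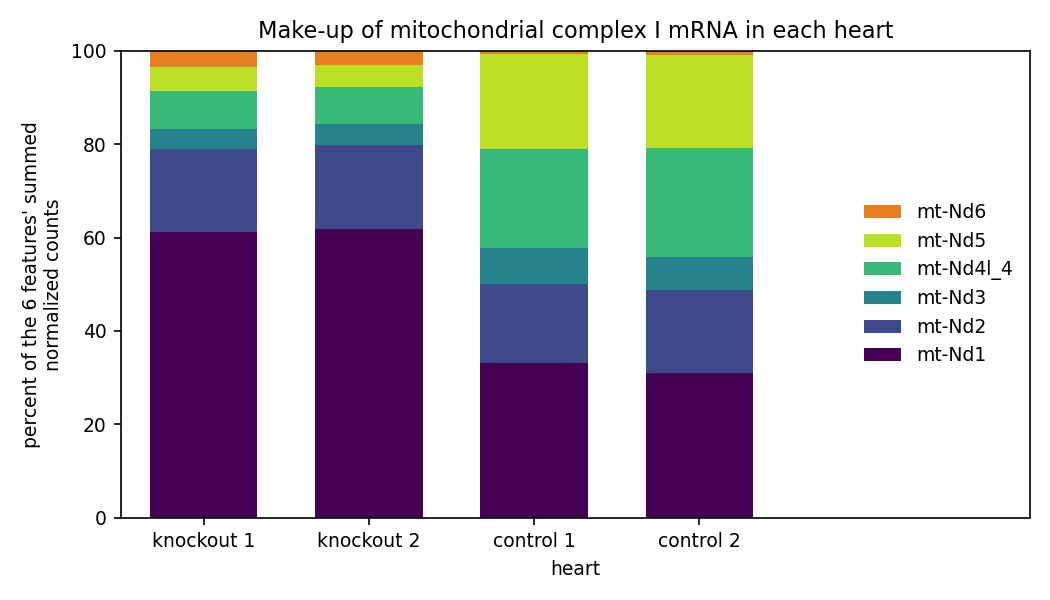
Share of each mitochondrial complex I feature in the summed normalized counts of the 6 features, in percent, for each knockout heart (left) and each control heart (right). mt-Nd1 fills 61.3% and 61.8% of the bars of the knockouts and 33.2% and 31.1% of those of the controls, and mt-Nd5 fills 5.19% and 4.66% of those of the knockouts and 20.2% and 20.0% of those of the controls.

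Markers of the cell types of the heart were read beside these results, since in a whole heart fewer cells of a type and less RNA per cell cannot be told apart. The 6 cardiomyocyte markers were all expressed and summed to 532029 to 549612 normalized counts in the knockouts and 528264 to 560511 in the controls, ranges that overlap. Fibroblast markers summed to 6870 to 7386 in the knockouts and 8195 to 8687 in the controls, with 3 of 5 lower in both knockouts, against 17.5% of all genes tested, and none was called. Erythroid markers summed to 11297 and 30947 in knockout hearts 1 and 2, against 10802 to 14258 in the controls, so that knockout heart 2 stood apart. Macrophage markers summed to 2141 to 2209 in the knockouts and 2115 to 3143 in the controls, and none was called. Lyz2 and Cd68, 2 of the 5 macrophage markers, lay lower in both knockouts, against 17.5% of all genes tested. Both had an unadjusted p under 0.05 in limma, against 887 of all 14522 genes tested. In the other macrophage markers the groups overlapped, and the highest log2 fold change of the 5 was 0.07. Lyz2 had 1006 and 957 in the knockouts, against 1423 and 1194 in the controls (log2 fold change -0.41, limma adjusted p = 0.680), and Cd68 had 39.5 and 35.2 in the knockouts, against 81.1 and 57.9 in the controls (log2 fold change -0.86, limma adjusted p = 0.754). Of the endothelial and the smooth muscle and pericyte markers none was called, and in none were the groups apart. Of the adipocyte and skeletal muscle lists, 0 of 3 and 2 of 4 genes were high enough to be tested. The skeletal actin gene Acta1 had 2670 and 1662 in the knockouts, against 2801 and 4253 in the controls (log2 fold change -0.71). It had an unadjusted p under 0.05 in limma and was not called. In Ckm, the other gene tested of the skeletal muscle list, the groups overlapped (log2 fold change -0.02). Cidec and Myog were at 0 in all 4 hearts. The part of these cell types in the complex I values was not tested.

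The nuclear-encoded complex I genes did not show the pattern of the mitochondrial ones. None of the 47 was called in either direction by limma, edgeR or DESeq2. None had an unadjusted p under 0.05 in limma, against 887 of all 14522 genes tested. Their log2 fold changes ran from -0.13 to 0.28 with a median of 0.04. Both knockouts stood above both controls in 8 of the 47 genes (17.0%, against 18.1% of all genes tested) and below them in 2 (4.26%, against 17.5%). In 30 of the 47 the difference between the groups was smaller than that between the 2 control hearts. The share of all genes tested for which this holds was not computed, so whether the count is particular to these genes cannot be told.

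For most of these genes the interval of the difference was narrow. The 95% interval of the log2 fold change lay within -0.5 and 0.5, a 1.41-fold change either way, for all 37 nuclear subunit genes, against 30.5% of all genes tested, and within -1 and 1 for all 47, against 70.3% of all genes tested. Over the 37 the intervals reached from -0.40 (Ndufa1) to 0.48 (Ndufa1). The subunit genes are well expressed in the heart, with mean normalized counts of 736 to 6071.

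**Figure D3:**
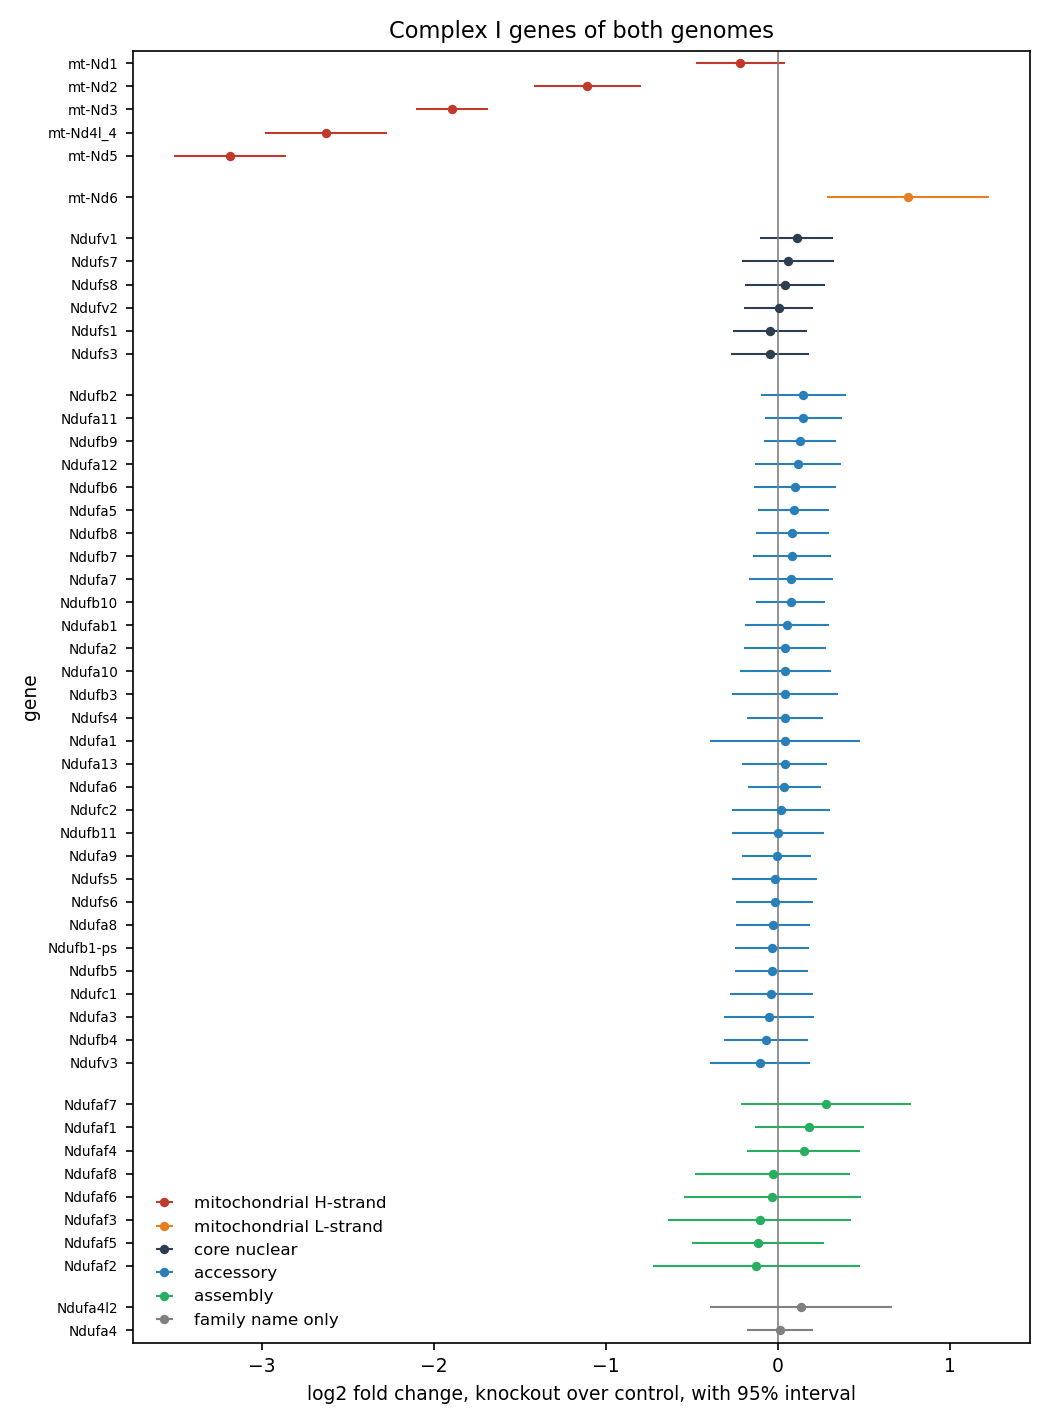
Log2 fold change of knockout over control hearts with its 95% interval from limma for 52 of the 53 genes, by class. The 5 H-strand features run down to -3.19 and mt-Nd6 stands at 0.76, while the nuclear genes stay between -0.13 and 0.28.

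The 7 core subunit genes carry the catalytic path of the peripheral arm. Ndufv1 (chr19:4007384-4012806), whose product holds the flavin and oxidizes NADH, had 4938 and 4501 in the knockouts, against 4492 and 4253 in the controls. It was the only core gene whose groups did not overlap, by a narrow margin, and its log2 fold change of 0.11 (95% interval -0.10 to 0.32) did not pass the test (limma adjusted p = 0.899). Ndufv2 (chr17:66078638-66101559), which carries an iron-sulfur cluster beside the flavin, had 3558 and 3327 in the knockouts, against 3439 and 3419 in the controls. Ndufs1 (chr1:63143596-63176833), the large iron-sulfur subunit of the NADH-oxidizing N module, had 6021 and 5914 in the knockouts, against 5822 and 6527 in the controls. The knockouts of Ndufv2 enclose both controls and the controls of Ndufs1 enclose both knockouts, with log2 fold changes of 0.0048 for Ndufv2 and -0.05 for Ndufs1.

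The Q module, which passes the electrons to ubiquinone, gave the same picture. Ndufs7 (chr10:80249121-80256794), which holds the last iron-sulfur cluster before ubiquinone, had 1648 and 1393 in the knockouts, against 1445 and 1468 in the controls. The knockouts of Ndufs7 enclose both controls. Ndufs8 (chr19:3908863-3912774), another iron-sulfur subunit, had 1623 and 1458 in the knockouts and 1510 and 1477 in the controls, and Ndufs3 (chr2:90894634-90904827), a scaffold of the module, had 1861 and 1752 in the knockouts and 1790 and 1944 in the controls. The log2 fold changes of these 3 genes lay between -0.05 and 0.06, and the adjusted p of the 7 core genes ranged from 0.899 to 0.995 from limma.

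The 30 accessory subunit genes had log2 fold changes of -0.10 to 0.15, with a median of 0.04, and none was called. Those with the smallest p were Ndufa11, Ndufb9, Ndufb2 and Ndufa12. Ndufa11 (chr17:56717767-56722141), a membrane arm subunit that touches complex III in supercomplexes, had 1069 and 1110 in the knockouts, against 970 and 996 in the controls. Ndufb9 (chr15:58933756-58939488), of the distal membrane arm, had 4083 and 3886 in the knockouts, against 3800 and 3496 in the controls. Both genes had the knockouts above the controls by small margins, by 0.15 and 0.13 on the log2 scale (limma adjusted p = 0.865 and 0.882). Ndufb2 (chr6:39592574-39603382), also of the distal membrane arm, had 955 and 867 in the knockouts, against 810 and 831 in the controls, and Ndufa12 (chr10:94198720-94221443), a late-added subunit of the peripheral arm, had 2209 and 1936 in the knockouts, against 1831 and 1987 in the controls. Ndufb2 lay higher in both knockouts and Ndufa12 overlapped. The other accessory genes ranged from -0.10 (Ndufv3) to 0.10 (Ndufb6).

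Among the accessory genes, Ndufb4 has a processed pseudogene, Ndufb4c, whose counts were nearly as high, and reads may be split between them. Ndufb4 had 739 and 714 in the knockouts, against 740 and 784 in the controls, and Ndufb4c had 647 and 610 in the knockouts and 549 and 640 in the controls. The sum of the pair was 1386 and 1323 in the knockouts and 1289 and 1424 in the controls, which overlap, so that the narrow gap for Ndufb4 alone is uncertain. The 4 other Nduf pseudogenes in the table reached at most 23.1 in the 4 hearts.

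Grouped by the assembly module they join, the nuclear subunit genes gave medians close to 0 wherever they sit. The median log2 fold change was 0.0048 over the 7 genes of the N module, 0.04 over the 5 of the Q module, -0.03 over the 3 that assemble with mt-Nd1, 0.02 over the 5 that join the mt-Nd2 part, -0.02 over the 6 of the mt-Nd4 part, 0.08 over the 5 of the mt-Nd5 part and 0.06 over the 6 placed between modules. The nuclear partners of mt-Nd5, whose mRNA fell most, had log2 fold changes of 0.04 to 0.15, none of which passed the test. The partners of mt-Nd1 had -0.05 to 0.04.

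The 8 assembly factor genes had mean normalized counts of 87.1 to 606, and their differences were less precisely measured than those of the subunit genes (median standard error 0.20, against 0.10). Per kilobase they averaged 81.3 to 284 in the knockouts and 66.6 to 251 in the controls, while the subunit genes with a length averaged 377 to 5660 in the knockouts and 340 to 5182 in the controls. Their log2 fold changes ran from -0.13 to 0.28 and none was called. Ndufaf1 (chr2:119655446-119662827), a member of the complex that builds the membrane arm, had 419 and 406 in the knockouts, against 391.9 and 336.8 in the controls. Ndufaf7 (chr17:78937136-78948052), a methyltransferase, had 156 and 207 in the knockouts, against 163 and 133 in the controls. Ndufaf4 (chr4:24898083-24905001), which acts in early assembly, had 707 and 571 in the knockouts, against 565 and 581 in the controls. These 3 had both the smallest p and the largest differences among the assembly genes, of 0.18, 0.28 and 0.15 on the log2 scale (limma adjusted p = 0.890, 0.890 and 0.909), and only in Ndufaf1 did the groups not overlap. For Ndufaf7 the 95% interval reached from -0.22 to 0.78 and for Ndufaf2, which is exchanged for Ndufa12 late in assembly, from -0.73 to 0.48, so that changes of that size in these genes were not detectable here.

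Ndufa4 (chr6:11900292-11907497), now known as a subunit of cytochrome c oxidase, had 3838 and 3772 in the knockouts, against 3686 and 3853 in the controls (log2 fold change 0.01). Its paralog Ndufa4l2 (chr10:127514967-127517154), known as a hypoxia-induced gene, had 99.7 and 127 in the knockouts, against 114 and 91.6 in the controls (log2 fold change 0.14, 95% interval -0.39 to 0.66). Neither was called. Per kilobase, Ndufa4 was the highest of the nuclear Nduf genes that have a length, at 8272 in the knockouts and 8194 in the controls.

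Assembly factors without an Nduf name were looked at as a list of 13 genes, of which 12 were tested and none was called. Acad9, a partner of Ndufaf1 in assembly, had 433 and 462 in the knockouts, against 311 and 419 in the controls (log2 fold change 0.31, limma adjusted p = 0.837). Chchd4, which oxidizes imported subunits in the intermembrane space, had 190 and 199 in the knockouts, against 167 and 174 in the controls. Both knockouts lay above both controls in 5 of the 12, against 18.1% of all genes tested, and the median log2 fold change of the list was 0.06.

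The 11 other genes for entry of electrons to ubiquinone, among them those of succinate dehydrogenase, had a median log2 fold change of -0.03, and none was called. Sdhb, the iron-sulfur subunit of succinate dehydrogenase, had 5160 and 4827 in the knockouts, against 4516 and 4505 in the controls, and Sqor, a sulfide oxidoreductase, had 205 and 187 in the knockouts, against 196 and 276 in the controls. None of the nuclear subunit genes of the other complexes was called. Both knockouts stood above both controls in 3 of 9 genes of complex III, 6 of 13 of complex IV and 6 of 17 of ATP synthase, against 18.1% of all genes tested. They stood below both controls in 0, 1 and 0 of these, against 17.5%. In complex IV 2 genes, Cox8a and Cox7a1, had an unadjusted p under 0.05 in limma, against 887 of all 14522 genes tested. Their medians were 0.05 over 9 genes of complex III, 0.06 over 13 of complex IV and 0.06 over 17 of ATP synthase. The genes with the smallest p were Cyc1 and Uqcr10 in complex III (0.14 and 0.10 on the log2 scale), Cox8a and Cox7a1 in complex IV (0.48 and -0.35) and Atp5g2 and Atp5l in ATP synthase (0.19 and 0.14).

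The balance between the genomes was read inside each heart as the summed H-strand complex I counts per summed count of the 37 nuclear subunit genes. This ratio was 3.40 and 3.29 in the knockouts, against 7.24 and 8.38 in the controls, with means of 3.35 ± 0.072 in the knockouts and 7.81 ± 0.80 in the controls (mean ± SD, n = 2 hearts each). The difference was -1.22 on the log2 scale (two-sided exact permutation p = 0.333, the least this design allows), and the groups did not overlap. The sums behind it were 268973 and 242745 H-strand counts in the knockouts, against 533897 and 636371 in the controls, and 79188 and 73672 nuclear subunit counts in the knockouts, against 73766 and 75978 in the controls. Only the mitochondrial sum separated the groups. Without mt-Nd1, which holds most of the H-strand counts in the knockouts, the ratio was 1.24 and 1.19 in the knockouts, against 4.81 and 5.75 in the controls.

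**Figure D4:**
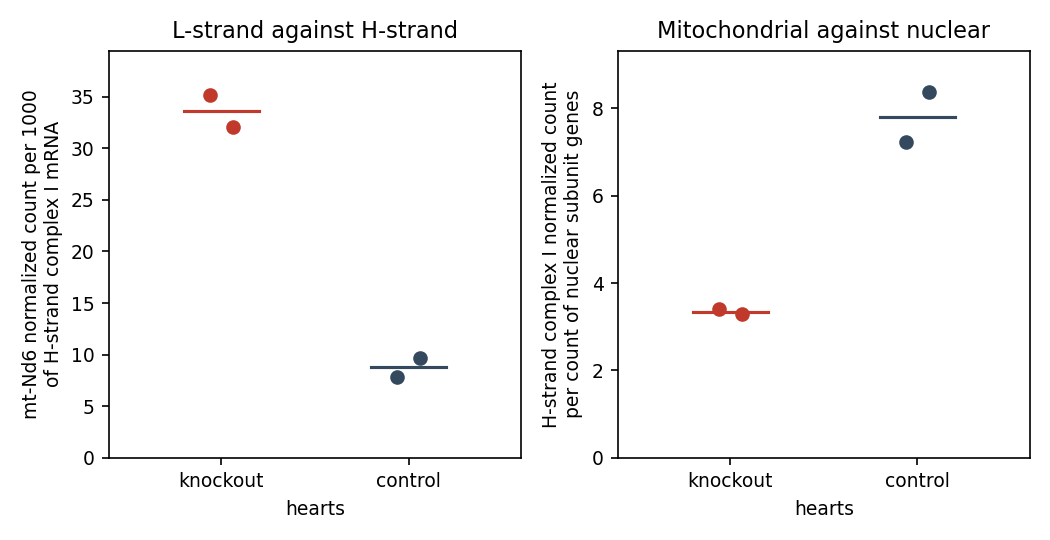
Ratios inside single knockout hearts (red, left) and control hearts (dark blue, right), with lines at the means. In the left panel mt-Nd6 per 1000 H-strand complex I counts is 35.2 and 32.1 in the knockouts and 7.83 and 9.72 in the controls, and in the right panel the H-strand counts per nuclear subunit count are 3.40 and 3.29 in the knockouts and 7.24 and 8.38 in the controls.

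A shift shared by most nuclear subunit genes separated the 2 knockout hearts. In 35 of the 37 nuclear subunit genes knockout heart 1 was higher than knockout heart 2, against 50.3% of all genes tested. The controls also differed, with control heart 2 higher than control heart 1 in 26 of the 37, against 49.8% of all genes tested. The median over the 37 genes, relative to the control mean on the log2 scale, was 0.09 and -0.03 in knockout hearts 1 and 2 and -0.02 and 0.02 in control hearts 1 and 2. The median log2 fold change over the 37 was -0.03 without knockout heart 1, against 0.04 with all 4 hearts. The erythroid markers, given above, also separate the 2 knockout hearts, and their part in this shift was not tested.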

How the data were processed

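The data are RNA-seq libraries (TruSeq) from total RNA of whole mouse hearts. The authors mapped them to the GRCm38.p6 assembly, in which nuclear copies of mitochondrial sequence were hidden, using STAR 2.7.3a, counted genes by strand with Salmon 1.1.0 on GENCODE vM24 with their own mitochondrial annotation, and deposited counts divided by DESeq2 size factors (a normalized signal, DESeq2 1.26.0). A deposited table of the authors' own fold changes and p-values was not used. All 6 columns of normalized counts were matched to mice through their labels, and 0 were left out. Of the deposited values, 100.0% were whole reads within 0.001 after division by the value of 1 read.

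Normalized counts were tested as log2(value + 1) with limma 3.58.1 (mean-variance trend, two-sided, Benjamini-Hochberg adjustment over all 14522 genes with a value of at least 10 in 2 libraries), so fold changes of low genes are understated. edgeR 4.0.16 (13 genes higher, 6 lower) and DESeq2 1.42.0 (44 higher, 19 lower) were run on the recovered reads in R 4.3.3. Ratios were compared by exact permutation tests. The code was tested on simulated data. Positions, lengths (median protein-coding transcript) and sequences come from GENCODE vM21, not the vM24 that the authors used.

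The genes described and the lists were chosen with earlier results of these data known. Genes were named by a rule: Ssbp1, the mitochondrial complex I features, the core genes, any Nduf gene called, the 4 accessory and 3 assembly genes with the smallest p, the 3 nuclear subunit or assembly genes with the largest change at a mean of at least 50, Ndufa4 and Ndufa4l2, and up to 2 genes per other list. The values of 1 core gene are not reported here. Ndufb4, Ndufb4c, Ndufaf2 and genes at the ends of ranges were added after their values were seen. Alternatives changed the pseudocount, filter, scaling, trend, tool, replicate block, mice and hearts left out.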

Additional observations from a re-analysis of the deposited data

Results flagged for a closer look

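Mice 585H and 586H, whose title and genotype field contradict each other, hold values outside the range of the compared hearts. In mouse 585H, titled as a control and given the knockout genotype, mt-Nd6 had a normalized count of 9550, and there were 35.2 counts of mt-Nd6 per 1000 of H-strand complex I mRNA, both above both control hearts. The same mouse had 10848 for mt-Nd3 and 11403 for mt-Nd5, below both knockouts (12178 and 11284 for mt-Nd3, 14459 and 11664 for mt-Nd5) and both controls (41898 and 45192 for mt-Nd3, 108876 and 128242 for mt-Nd5). In mouse 586H, titled as a knockout and given the control genotype, mt-Nd1 had 240231, mt-Nd2 had 126634, mt-Nd3 had 45988 and mt-Nd4l_4 had 150406, and the H-strand complex I counts per nuclear subunit count came to 8.58, all above both control hearts. Which label is right was not tested, and neither mouse enters a comparison.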

How the results depend on the processing

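Of the H-strand complex I features, 3 were called lower, and 3 or 4 under 14 of 16 alternatives (3 to 4 with 1 heart left out), but 0 in limma without a mean-variance trend and 0 with the 2 contradictory mice added by title. Across the same 16, 0 nuclear complex I genes were called in either direction, and their lowest adjusted p was 0.099, in the fit with equal mitochondrial totals, which moves the median of all genes to 0.47. With equal mitochondrial totals the median of the nuclear subunit genes was 0.52 and mt-Nd6 stood at 1.23, past the threshold; no heart was left out of that fit. On the deposited scale, with 1 heart left out, the median of the nuclear subunit genes was -0.03 to 0.09 (the lowest without knockout heart 1) and mt-Nd6 stood at 0.47 to 1.04, not past the threshold. A group left with 1 heart is assumed to vary like the other group. The log2 ratio of mt-Nd6 to H-strand complex I mRNA was 0.64 by title and 1.96 by genotype field, and 1.79 to 2.10 with 1 heart left out. The ratio of H-strand to nuclear complex I mRNA was -0.39 by title and -1.23 by genotype field, and -1.32 to -1.11 with 1 heart left out. In edgeR 13 genes were called higher and 6 lower, in DESeq2 44 and 19, with equal mitochondrial totals 47 and 6, by genotype field 38 and 13, by title 0 and 0 (379 at an unadjusted p under 0.05), without the trend 6 and 0, with a minimum of 50 in 2 libraries 17 and 7, against 11 and 6. With 1 heart left out, 1 to 21 were called higher and 4 to 12 lower.

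Directions turned only in genes that were not called. With equal mitochondrial totals, log2 fold changes were 0.26 for mt-Nd1, 0.43 for Ndufs1, 0.43 for Ndufs3 and 0.24 for Ssbp1. The median over all genes tested in that fit was 0.47, above each of these. By title they were 0.01 for mt-Nd1, 0.01 for Ndufs1 and 0.0038 for Ssbp1, and by genotype field -0.0028 for Ndufs8, -0.04 for Ndufv2 and -0.02 for Ndufa4. With 1 heart left out, they ran from -0.13 to 0.04 for Ndufs1, -0.11 to 0.01 for Ndufs3, -0.06 to 0.18 for Ndufs7, -0.03 to 0.12 for Ndufs8, -0.04 to 0.05 for Ndufv2, -0.01 to 0.30 for Ndufaf4, -0.02 to 0.05 for Ndufa4 and -0.04 to 0.31 for Ndufa4l2. The cause was not tested.

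The labels number the hearts but tie no numbers to a litter or day, and with 2 pairs the correlation of deviations from the group means was 0.31, which cannot decide whether the numbers pair the hearts. With a replicate block, 23 genes were called higher and 7 lower, 4 of the H-strand complex I features were lower, 0 nuclear complex I genes were called, the median of the nuclear subunit genes was 0.04 and mt-Nd6 stood at 0.76. With 2 hearts a group, the intervals of the nuclear subunit genes still allow changes down to 0.76-fold and up to 1.39-fold.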

Other observations

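The 2 mice left out of the comparisons lay apart from each other in the mitochondrial complex I genes and close to each other in the nuclear ones. mt-Nd5 had 11403 normalized counts in mouse 585H and 127676 in mouse 586H, beside 14459 and 11664 in the knockouts and 108876 and 128242 in the controls. mt-Nd5 per 1000 counts of mt-Nd1 was 65.1 in mouse 585H and 531 in mouse 586H. The summed counts of the 37 nuclear subunit genes were 76059 in mouse 585H and 80563 in mouse 586H. Ssbp1 had 152 in mouse 585H and 211 in mouse 586H.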
